A study of Mus musculus with 24 samples.

Results

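The nuclear genes of oxidative phosphorylation were followed in RNA from retinoic acid differentiated CCE embryonic stem cells and from mouse fetal heads. Members were all protein-coding genes of the GENCODE M1 annotation off the mitochondrial chromosome whose name starts with Nduf, Uqcr, Atp5, Sdh followed by a, b, c or d, or Cox4 to Cox8. This rule on names alone gave 94 entries among 22380 protein-coding genes, with 93 names because Ndufb8 is listed 2 times. It placed 37 entries in complex I, 4 in complex II, 8 in complex III, 20 in complex IV and 16 in complex V (ATP synthase), and left 9 assembly factors and other genes. Cox4nb, which lies beside Cox4i1, belongs to a complex of the endoplasmic reticulum and carries a member's name only by its position. Atp5l-ps1 carries a pseudogene's name although the annotation lists it as protein-coding.

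Oxidative phosphorylation takes place in the inner mitochondrial membrane. Complexes I and II pass electrons from NADH and succinate to ubiquinone, complex III passes them on to cytochrome c, and complex IV (cytochrome c oxidase) reduces oxygen. Complexes I, III and IV pump protons, and complex V uses the return of these protons to make ATP. Apart from complex II, the complexes join subunits encoded in the mitochondrion with nuclear subunits, and several nuclear subunits of complex IV exist as a widely expressed form and as a form known from heart and skeletal muscle, testis or lung.

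CCE is a feeder-independent embryonic stem cell line of strain 129/SvEv, taken after 5 days of differentiation without LIF and with 0.266 µM retinoic acid. FH is the head of FVB/N embryos at 14.5 days postcoitum (dpc), a mixture of many cell types, for which no separate animals are stated. Strain, culture and tissue differ together between CCE and FH and cannot be told apart. RNA depleted of ribosomal RNA with the RiboMinus kit was fragmented by RNA hydrolysis or turned into cDNA and sheared, and each cDNA was sequenced in Vienna-IMP and in Nijmegen. This gave 7 cDNA preparations, 4 of CCE (sheared and hydrolysed CCE1 and CCE2, which are technical replicates) and 3 of FH (sheared and hydrolysed FH1, and hydrolysed FH2 after 2 rounds of depletion). P values therefore measure the spread between these preparations, which may be technical. A Ribo-Zero library of hydrolysed RNA from a biological replicate was made for each tissue and sequenced at Vienna-CeMM.

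Each of the 14 RiboMinus libraries held 920424 to 2473448 unique tags, and each of the 7 preparations 1888761 to 4322418. Ribo-Zero gave 28708715 for CCE and 48426051 for FH. Exons of protein-coding genes held 64.0% to 71.1% of the unique tags of a CCE RiboMinus library and 43.7% to 60.1% of those of an FH library. The study calls a lane of hydrolysed FH RNA at Vienna-IMP, taken here as that of FH1, a likely technical outlier. The numbers of the hydrolysed cDNA may be crossed between the locations (r = -0.45 in CCE and -0.41 in FH, across genes, between the locations' log2 differences of number 1 and 2, and 0.45 for sheared CCE). If so, each summed hydrolysed preparation mixes both cDNAs, and the spread between them comes out too small. Ndufa13, for example, had 45.2 and 71.4 RPKM in the hydrolysed CCE1 and CCE2 libraries of Vienna-IMP and 66.7 and 35.7 in those of Nijmegen. Its summed preparations had 53.4 and 51.1. P values that rest on hydrolysed preparations may then be too small. In FH the 7 tested marker genes of neurons and neural progenitors and the 4 tested red blood cell genes were higher than in CCE, as were 7 of the 8 tested skeletal muscle genes. In CCE the 8 genes of primitive endoderm and the 3 tested smooth muscle genes were higher. The 4 red blood cell genes, Mtap2, Dcx, Neurod1, Ckm, Myh3, Tnni2 and Myog reached the tested mean RPKM above 3 only in FH. Gata4, Gata6, Lama1 and Cnn1 reached it only in CCE. Only a higher level there could bring these genes into the test, and their calls are given as a description. In Ribo-Zero Sox2, counted above as higher in FH, was lower in FH (42.7 in CCE and 21.4 in FH). In bulk RNA, fewer cells of a type and less RNA per cell cannot be told apart.

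Tags were counted in merged exons and given as RPKM, which scales tags by exon length and by all unique tags of the library. The member genes together took 0.400% to 0.547% of the unique tags of a CCE preparation and 0.279% to 0.317% of those of an FH preparation, and the ranges did not overlap. As a share of the tags in exons of protein-coding genes the values were 0.576% to 0.788% in CCE and 0.499% to 0.606% in FH, and here the ranges overlapped. The mean RPKM was over 50 for 23 members in CCE and for 13 in FH, and Cox4i1, which encodes the widely expressed form of subunit IV of cytochrome c oxidase, had the highest mean in CCE (204 ± 23.1, SD, n = 4). In FH the highest mean was that of Cox8a, the widely expressed form of subunit VIII (141 ± 40.2, SD, n = 3). Cox8c and Atp5l-ps1 had no tag in any RiboMinus library.

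For the comparison of the tissues, 80 members passed a filter (mean RPKM above 3 in either tissue) and were tested with limma on log2(RPKM + 1), together with all other genes (10306 in all, adjusted p under 0.05). Of these, 25 were lower in FH than in CCE (31.25% of the members tested, beside 34.8% of all genes tested) and 5 were higher in FH (6.25%, beside 19.9%). The median log2 difference, FH minus CCE, was -0.49 over the members and -0.34 over all genes, and 69 of 80 members lay below 0 (64.1% of all genes). Without sheared FH1 the medians were -0.31 and -0.29 and 53 of 81 members lay below 0. With hydrolysed preparations alone the medians were -0.45 and -0.36 and 71 of 83 members lay below 0. The values of the FH preparations all lay below those of the CCE preparations for 25 members (35.9% of all genes) and above them for 4 (20.3%). The share of members called lower was thus near that of all genes, while the share called higher was smaller.

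These counts depend on the scale. With tags in exons of protein-coding genes as the total, the median of all genes moved from -0.34 to 0.06 and that of the members to -0.11, and 6 members were called higher (28.1% of all genes) and 12 lower (18.9%) of 85 tested. With size factors from medians of ratios, which moved the median of all genes to -0.09, 5 were called higher (24.4%) and 13 lower (24.4%). With fragmentation as a covariate, which matters because CCE had as many sheared as hydrolysed preparations and FH only 1 sheared one, 5 members were called higher (25.5%) and 49 lower (61.25% of the members, beside 49% of all genes). Differences are given below on the scale of all unique tags, against the median of -0.34 over all genes.

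**Figure D1:**
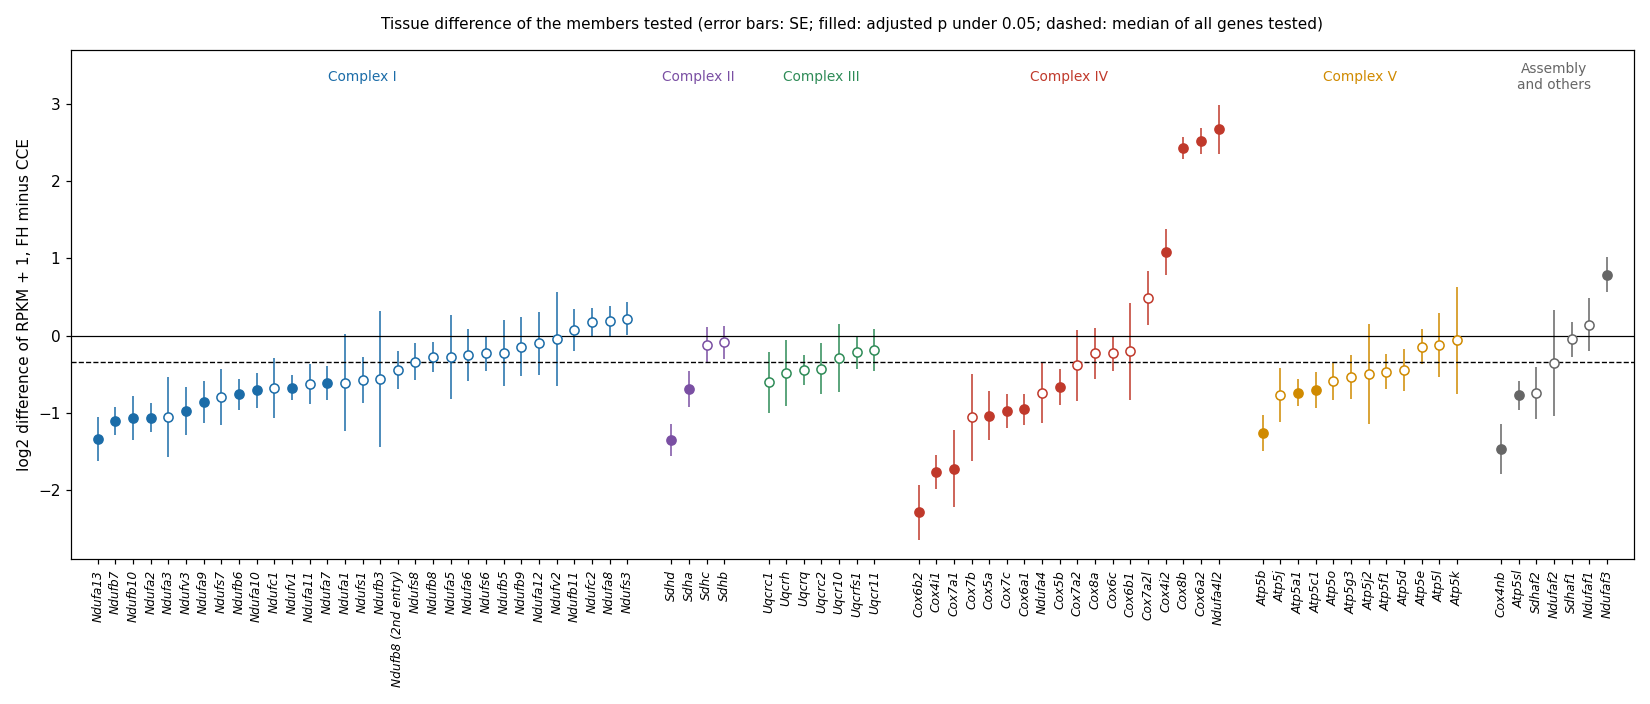
Each point is a member, with 79 of the 80 tested shown, grouped by complex on the x axis; the y axis is the log2 difference of RPKM + 1, FH minus CCE, with its SE. Filled points passed the test, and the dashed line marks the median of all genes tested (-0.34); complex IV holds the members farthest from 0 on both sides, from Cox6b2 (-2.29) to Ndufa4l2 (2.67).

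In complex I, 11 of 32 tested subunits were lower in FH, a share near the 34.8% of all genes, none was higher (19.9% of all genes), and the median log2 difference was -0.59. With fragmentation as a covariate 20 were lower, a share above the 49% of all genes. They included the accessory subunits Ndufa2, Ndufa7, Ndufa9, Ndufa10, Ndufa13, Ndufb6, Ndufb7, Ndufb10 and Ndufv3 and the core subunit Ndufv1, which binds the flavin that takes up electrons from NADH. Of 25 settings, that reported here included, the calls held in 22 for Ndufb6 and Ndufv1, 19 for Ndufa10 and 18 for Ndufa9 and Ndufv3, and for Ndufa7 in 14 of 24. These calls were lost on both other scales, and all but that of Ndufa7 also with Nijmegen libraries alone (adjusted p = 0.0515 to 0.202). Ndufa2 passed the filter only through CCE, where it was high (means of 6.86 and 2.72), and its call, which was lost with Nijmegen libraries alone, is given as a description. The calls of Ndufa7, Ndufa9, Ndufa10 and Ndufv3 were also lost without hydrolysed CCE1, hydrolysed CCE2 or sheared FH1, with Ndufa7 and Ndufa9 lost without sheared CCE1, Ndufv3 without hydrolysed FH1 and Ndufa7 without hydrolysed FH2. Ndufa13, also known as a cell death regulator, had RPKM values of 83.0 and 36 in the sheared CCE1 and CCE2 preparations and 53.4 and 51.1 in the hydrolysed ones, against 25.6 in sheared FH1 and 16.9 and 19.9 in hydrolysed FH1 and FH2. All FH values lay below all CCE values (log2 difference -1.34 ± 0.28, SE, adjusted p = 0.00352). Ndufb7 had 30.6, 26.6, 22.7 and 22.4 in the same order of CCE preparations and 10.8, 10.5 and 12.6 in FH (-1.10 ± 0.18, SE, adjusted p = 0.000809). The values of each tissue lay close together, with an SD of 3.84 around the CCE mean of 25.6 and of 1.17 around the FH mean of 11.3. Ndufb10 had 19.5, 19.7, 35.6 and 30.8 in CCE and 8.27, 11.9 and 15.8 in FH (-1.07 ± 0.29, SE, adjusted p = 0.0119), but did not pass when tags in protein-coding exons were the total (-0.75, adjusted p = 0.0754). Ndufb9 was the complex I subunit with the highest mean in both tissues, 96.4 ± 33.7 (SD, n = 4) in CCE and 86.5 ± 31.7 (SD, n = 3) in FH, and its difference of -0.15 ± 0.38 (SE) was not larger than the spread.

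In complex II, which takes electrons from succinate and also works in the citrate cycle, 2 of 4 subunits were lower in FH, and 2 with fragmentation as a covariate, beside 34.8% and 49% of all genes. Sdhd, a membrane anchor of the complex (chr9:50404443-50411954 on mm9), had RPKM values of 49.955 and 40.2 in the sheared and 38.5 and 39.5 in the hydrolysed CCE preparations, and 21, 12.1 and 15.3 in sheared FH1, hydrolysed FH1 and hydrolysed FH2. The tissues did not overlap and the CCE mean was 2.61 times the FH mean (log2 difference -1.35 ± 0.21, SE, adjusted p = 0.000712). Sdha, the subunit with the flavin and the catalytic site, had 23.4, 18.9, 30.9 and 34.8 in CCE and 13.9, 16.4 and 17.5 in FH (-0.69 ± 0.23, SE, adjusted p = 0.0311). This call was lost in 11 of 24 other settings, among them each of the hydrolysed preparations left out (adjusted p = 0.0588 to 0.0834 over these) and sheared FH1 left out (0.0809). Sdhb and Sdhc, the iron-sulphur subunit and the other anchor, differed by -0.09 ± 0.21 and -0.13 ± 0.23 (SE), less than their spread.

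In complex III, none of 7 tested subunits passed the test, with log2 differences between -0.61 and -0.19 and 1 subunit at an unadjusted p under 0.05. With fragmentation as a covariate 5 of them were called lower in FH, beside 49% of all genes. Uqcrc1, a core subunit, had the highest mean among these members in both tissues, 115 ± 52.6 (SD, n = 4) in CCE and 73.1 ± 30.9 (SD, n = 3) in FH. Its values differed with fragmentation, as described below, and within each method the FH values lay below the CCE values (with the covariate -0.43 ± 0.13, SE, adjusted p = 0.0125). Cyc1, the cytochrome c1 subunit of the complex whose name the rule does not take, had 200 ± 26.1 (SD, n = 4) in CCE and 170 ± 4.26 (SD, n = 3) in FH (-0.22 ± 0.18, SE, adjusted p = 0.334).

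In complex V, 3 of 12 tested subunits were lower in FH, a share under the 34.8% of all genes, and none was higher (19.9% of all genes). With fragmentation as a covariate 8 were lower, a share above the 49% of all genes. The 3 belong to the catalytic head, Atp5a1 and Atp5b to its ring and Atp5c1 to the shaft that turns in it. Atp5b (chr10:127520329-127527447) had 238 and 139 in the sheared and 150 and 161 in the hydrolysed CCE preparations and 83.3, 62.1 and 64.6 in FH. All FH values were lower than the lowest CCE value (log2 difference -1.26 ± 0.23, SE, adjusted p = 0.00179). Atp5a1 had means of 56.3 ± 4.14 (SD, n = 4) and 33.6 ± 5.69 (SD, n = 3) in CCE and FH (-0.74 ± 0.18, SE, adjusted p = 0.00681). Atp5c1 had 16.7 ± 4.66 and 9.63 ± 1.52 (-0.71 ± 0.23, SE, adjusted p = 0.0296). Both of these were lost on the 2 other scales, with adjusted p between 0.0778 and 0.205, and both with Nijmegen libraries alone (0.0865 and 0.175). The call of Atp5c1 held in 15 of 25 settings, and was also lost with the hydrolysed numbers crossed, without the hydrolysed FH1 library of Vienna-IMP, and without any preparation but sheared CCE2 or sheared FH1 (adjusted p = 0.0541 to 0.109 over these). Atp5d, another subunit of the shaft and the one with the highest FH mean, had 133 ± 43.7 in CCE and 95.2 ± 20.2 in FH, and these values overlapped. The 9 subunits not called had differences between -0.77 and -0.06.

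Among the assembly factors and other genes, Cox4nb (41.1, 29, 19.9 and 17.5 in CCE, 12.9, 6.55 and 7.32 in FH) and Atp5sl were lower in FH (-1.47 ± 0.33 and -0.77 ± 0.19, SE, adjusted p = 0.00494 and 0.00758). The limma call of Atp5sl was lost with exon scaling (-0.47, adjusted p = 0.0712) and with median of ratios size factors (-0.55, adjusted p = 0.0603). Ndufaf3, an assembly factor of complex I, had 14.1, 10.1, 7.99 and 13.7 in CCE and 23.3, 18.2 and 18.9 in FH, with every FH value above every CCE value (0.79 ± 0.23, SE, adjusted p = 0.0164). It did not pass without sheared FH1 (0.68, adjusted p = 0.0505), without the Vienna-IMP library of hydrolysed FH1 (0.57, adjusted p = 0.136), at Vienna-IMP alone (0.55, adjusted p = 0.154) or with repeated positions counted once (0.64, adjusted p = 0.0525). Ndufaf1, Ndufaf2, Sdhaf1 and Sdhaf2 did not pass.

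Complex IV was the only complex with subunits called in both directions, 7 lower and 4 higher in FH of 18 tested, shares near those of all genes (34.8% and 19.9%), and 11 and 4 with fragmentation as a covariate (49% and 25.5%). The 4 higher were Cox4i2, Cox6a2, Cox8b and Ndufa4l2, each a second form of a subunit that also has a more abundant form. All 4 passed the filter only through their level in FH, so that only a higher FH level could bring them into the test, and their calls are given as a description. The 7 lower held the widely expressed Cox4i1 and Cox6a1, the single-form subunits Cox5a, Cox5b and Cox7c, and the second forms Cox6b2, known from testis, and Cox7a1, known from heart and skeletal muscle. The call of Cox7c held in 25 of 25 settings, that of Cox5a in 18 of 25 and that of Cox5b in 11 of 24. Cox5b and Cox7a1 passed the filter only through CCE, where they were high, and their calls too are given as a description. Both Cox5a and Cox5b were lost on the 2 other scales, at Vienna-IMP alone and without hydrolysed CCE2 or any 1 FH preparation, and Cox5b also without hydrolysed CCE1, at Nijmegen alone, with limma-voom and with the preparation number as a block (adjusted p up to 0.155 and 0.234).

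Cox6a2, the heart and skeletal muscle form of subunit VIa (chr7:135348950-135349880), had no tag in any CCE preparation and RPKM values of 4.02, 4.09 and 6.33 in sheared FH1, hydrolysed FH1 and hydrolysed FH2, from 33 tags. With a floor of 3 tags over the CCE libraries, the level over the pooled FH libraries (5.05) was at least 14.5-fold higher. Cox6a1, the widely expressed form, had 67.3, 71.1, 71.7 and 70.7 in CCE and 48.3, 29.2 and 32.3 in FH. It was lower in every FH preparation (-0.96 ± 0.20, SE, adjusted p = 0.00372), but missed the threshold with Nijmegen libraries alone (-1.03, adjusted p = 0.0593). The 2 forms of this subunit thus differed between the tissues in opposite directions.

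Cox8b, the muscle form of subunit VIII (chr7:148084842-148086345), also had no tag in CCE RiboMinus libraries and 4.39, 3.72 and 5.11 RPKM in FH, from 16 tags. Against the same floor, the level over the pooled FH libraries (4.45) was at least 7.01-fold higher. Cox8a had 174, 92.2, 210 and 194 in CCE and 94.2, 162 and 166 in FH, and the tissues overlapped. Cox7a1, the muscle form of subunit VIIa (chr7:30969190-30971047), went the other way, with 4.60, 7.11, 21.3 and 18.8 in CCE and 1.45, 2.96 and 3.81 in FH. Its CCE values were higher throughout, with a mean 4.72 times that of FH (log2 difference -1.72 ± 0.50, SE). The difference was -1.45 without sheared FH1 and -0.87 with Nijmegen libraries alone, where the call was lost in both.

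Markers of muscle were present in both tissues. The summed RPKM of the 11 skeletal muscle genes was 76.5 to 89.3 in CCE and 392.5 to 562 in FH, with 7 of the 8 tested genes higher and Des lower in FH, and with Myog, Myh3 and Myh8 at 0 in CCE. The summed RPKM of 4 smooth muscle genes was 2107 to 2542 in CCE and 39.3 to 65.1 in FH, with Tagln at 1392 ± 116 (SD, n = 4) and 17.9 ± 2.85 (SD, n = 3). In Ribo-Zero the sums were 28.1 (CCE) and 246 (FH) for skeletal muscle and 119 (CCE) and 27.6 (FH) for smooth muscle. The part of these cell types in the values of Cox6a2, Cox8b and Cox7a1 was not tested.

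Cox6b2, the testis form of subunit VIb (chr7:4703396-4704696), was the member with the lowest log2 difference. It had 52.3, 59.7, 96.4 and 94.9 in CCE and 7.69, 20.0 and 18.1 in FH, and its CCE mean was 4.97 times the FH mean (-2.29 ± 0.36, SE, adjusted p = 0.000664). The tissues did not overlap, and within each tissue the sheared preparations were lower than the hydrolysed ones. Cox6b1, the widely expressed form, had 40.4, 30.0, 121 and 132 in CCE and 24.1, 85.3 and 91.6 in FH, which overlapped. In CCE the level of Cox6b2 per kilobase was therefore above that of Cox6b1 in sheared preparations and below it in hydrolysed ones, while in FH Cox6b1 was higher throughout.

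Cox4i1 (chr8:123192190-123198109) had 217, 170, 220 and 209 in CCE and 74.1, 45.6 and 60.3 in FH, so that the highest FH value was under every CCE value (-1.77 ± 0.22, SE, adjusted p = 0.000152). Cox4i2, the form of subunit IV known from lung, had 2.12, 0.469, 0.954 and 0.754 in CCE and 2.02, 3.42 and 4.70 in FH from 11 and 29 tags, and sheared FH1 lay below sheared CCE1 (1.09 ± 0.30, SE, adjusted p = 0.0134). Ndufa4l2, a relative of Ndufa4 known to be induced by low oxygen (chr10:126951995-126954208), had 1.40, 2.70, 2.09 and 0.619 in CCE and 22.6, 13.2 and 12.3 in FH. With 1 added to each RPKM this was the highest log2 difference of the members (2.67 ± 0.32, SE, adjusted p = 0.000135), and its FH mean was 9.43 times the CCE mean. The least fold given above for Cox6a2, which had no tag in CCE, was larger. Ndufa4, now counted as a subunit of complex IV, had 37.4, 18.8, 55.0 and 58.0 in CCE and 16.1, 25.2 and 28.7 in FH, and did not pass (-0.75 ± 0.39, SE, adjusted p = 0.131).

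**Figure D2:**
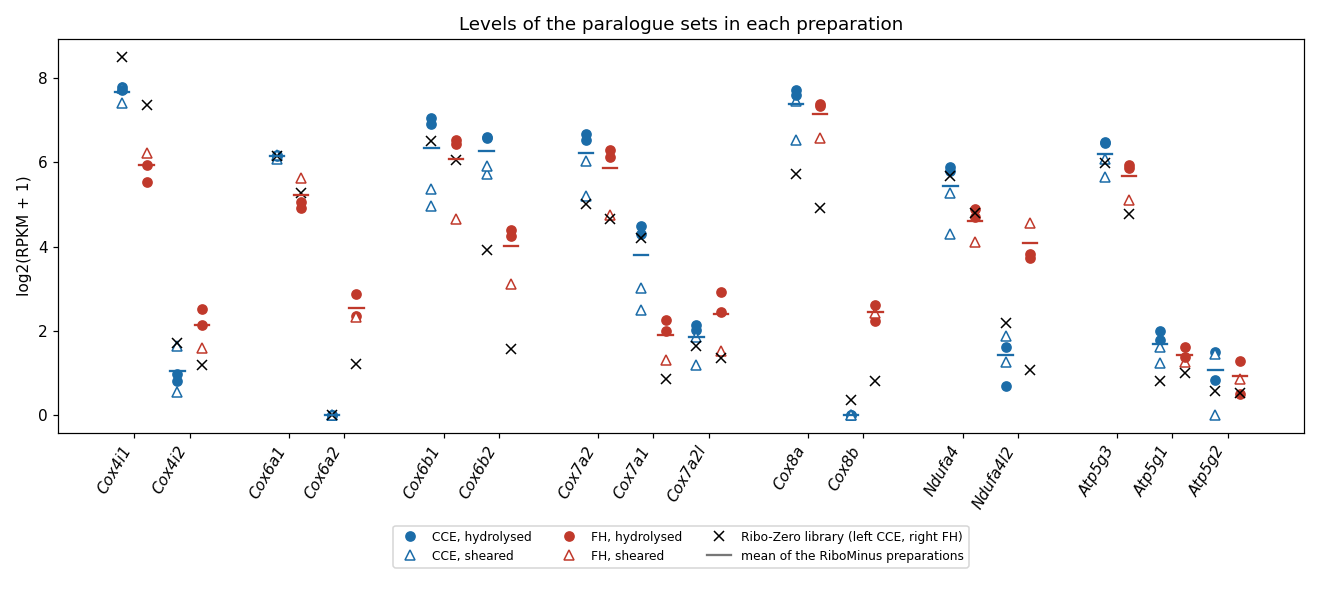
Log2(RPKM + 1) of the 16 genes of the paralogue sets (x axis, spaced by set) in each RiboMinus preparation, with CCE in blue on the left and FH in red on the right of each gene, triangles for sheared and circles for hydrolysed preparations, short lines for means and crosses for the Ribo-Zero library. Cox6a2 and Cox8b sit at 0 in all 4 CCE preparations, and the Ribo-Zero crosses of Ndufa4l2 lie in the opposite order to the RiboMinus points.

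Each second form was also set against its partner in the same preparation, as the log2 ratio of RPKM + 0.1. In 7 of 9 pairs with at least 10 tags of each gene the CCE and FH ratios did not overlap. No share over other pairs of genes was taken. Among single genes tested, FH lay without overlap above CCE for 20.3% and below it for 35.9%. With 4 preparations against 3 the exact two-sided permutation test cannot go below p = 0.0571, the value of all 7 pairs, so that none could pass 0.05 (adjusted p = 0.0735 over the 9 pairs). Relative to the partner, Ndufa4l2, Cox4i2 and Cox7a2l had higher ratios in all FH preparations, by 4.05, 3.45 and 1.01 on the log2 scale. So had Cox6a2 and Cox8b, but their CCE ratios are set by the pseudocount, since both had no tags there, and no size is given. In Ribo-Zero the levels of Ndufa4l2 and Cox4i2 were lower in FH, as given below. Cox6b2 and Cox7a1 were lower in FH relative to Cox6b1 and Cox7a2, by -2.16 and -1.64. For Cox6b2 to Cox6b1 the CCE log2 ratios were 0.37, 0.99, -0.32 and -0.47, all above the FH values of -1.64, -2.08 and -2.34. Cox7a2l, which encodes a factor that joins complexes III and IV, did not pass as a single gene (0.49 ± 0.35, SE, adjusted p = 0.263). The subunit c genes Atp5g1 and Atp5g2, set against Atp5g3, differed by 0.22 and 0.81 with overlapping preparations (exact permutation p = 0.457 and 0.571). Cox7b2 and Cox8c, both known from testis, had too few tags, 1 and 0 in RiboMinus libraries.

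**Figure D3:**
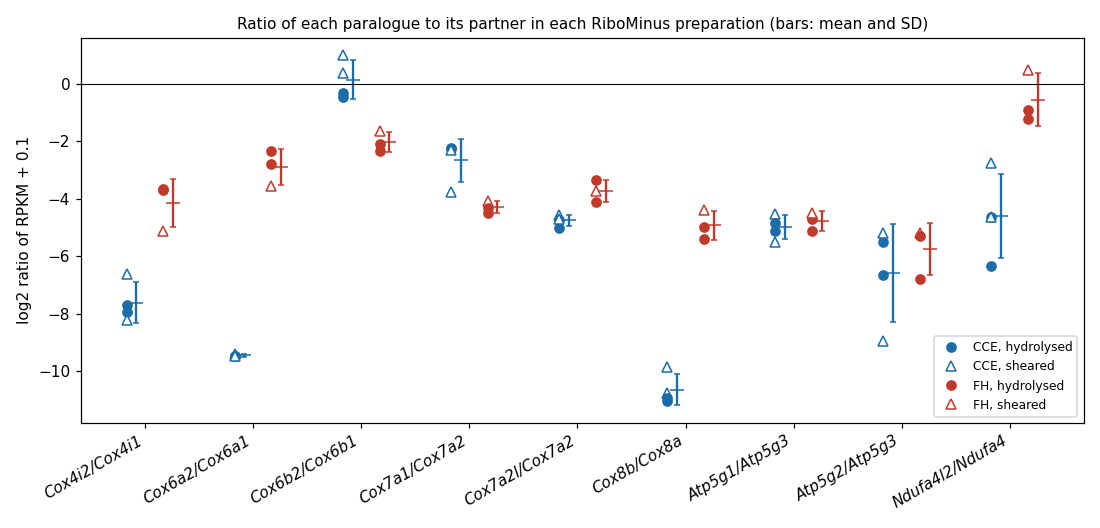
Log2 ratio of RPKM + 0.1 (y axis) of each second form to its partner (x axis) in each RiboMinus preparation, CCE in blue and FH in red, with triangles for sheared and circles for hydrolysed preparations and bars for mean and SD. The tissues are apart in 7 pairs and overlap for Atp5g1/Atp5g3 and Atp5g2/Atp5g3, and the CCE points of Cox6a2 and Cox8b are set by the pseudocount.

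Promoter windows from RefSeq (GRCm38.p6, 250 bases before to 50 after the start) were found for 76 of the 94 members and are shown for members whose tissue difference was large. The first 3, all from chromosome 7, are second forms of complex IV subunits, higher in FH (Cox8b) or in CCE (Cox6b2 and Cox7a1), and Sdhd is a single-form subunit for comparison. Capitals mark matches on either strand to the 5 motifs searched, CCGGAAG of ETS factors, GCGC, any base and TGCGC of NRF1, AAGATGGCG of YY1, the E-box CAGCTG and the TATA box TATAAA.
Cox8b (chr7:140900397-140900696, minus strand): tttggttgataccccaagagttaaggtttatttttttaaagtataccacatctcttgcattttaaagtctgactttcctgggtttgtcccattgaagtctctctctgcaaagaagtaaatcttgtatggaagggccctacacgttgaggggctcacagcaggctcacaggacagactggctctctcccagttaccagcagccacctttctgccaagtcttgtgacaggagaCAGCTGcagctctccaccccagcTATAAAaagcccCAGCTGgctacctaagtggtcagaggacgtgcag
Cox6b2 (chr7:4753045-4753344, minus strand): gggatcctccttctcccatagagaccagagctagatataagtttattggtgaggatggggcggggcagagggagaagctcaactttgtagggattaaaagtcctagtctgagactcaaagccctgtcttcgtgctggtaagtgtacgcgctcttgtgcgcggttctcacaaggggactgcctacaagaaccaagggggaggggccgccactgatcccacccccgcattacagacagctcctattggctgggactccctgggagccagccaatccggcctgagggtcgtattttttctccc
Cox7a1 (chr7:30183921-30184220, plus strand): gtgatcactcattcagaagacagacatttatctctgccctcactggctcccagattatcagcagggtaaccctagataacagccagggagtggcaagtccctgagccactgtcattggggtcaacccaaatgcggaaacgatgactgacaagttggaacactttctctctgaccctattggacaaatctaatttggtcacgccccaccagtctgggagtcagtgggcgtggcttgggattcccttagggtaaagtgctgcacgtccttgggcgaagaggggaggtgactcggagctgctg
Sdhd (chr9:50603800-50604099, minus strand): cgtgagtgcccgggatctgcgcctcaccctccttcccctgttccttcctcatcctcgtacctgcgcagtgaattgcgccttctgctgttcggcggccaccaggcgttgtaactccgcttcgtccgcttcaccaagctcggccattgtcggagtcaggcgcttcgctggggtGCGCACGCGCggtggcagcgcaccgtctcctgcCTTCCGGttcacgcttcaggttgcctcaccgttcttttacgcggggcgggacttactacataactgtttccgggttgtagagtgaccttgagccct
Cox8b held E-boxes at -19 and 16 and a TATA box at 4 from the annotated start. Cox6b2 and Cox7a1 held none of these letters. Sdhd held a match of NRF1 at -79 and one of ETS factors at -46 from the start. Cox6b2, Cox7a1 and Cox8b were also among the 5 members, with Cox7b and Ndufc2, whose window had an observed to expected CpG ratio under 0.5, as had 1184 of 7267 tested genes, and their ratios were 0.432, 0.333 and 0.115 where the median was 0.828 over 76 members and 0.768 over the tested genes. The ETS letters stood in 25% of the members and 19.6% of the tested genes' windows, NRF1 in 23.7% and 11.5%, YY1 in 10.5% and 3.61%, the E-box in 7.89% and 17.9% and the TATA box in 9.21% and 8.22%. A match describes letters in the window and no binding was measured.

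The tissue comparison was repeated with the Ribo-Zero libraries, 1 per tissue, so that no test was possible. Intervals are exact and hold for counting error alone, because tags are not independent molecules. Of 72 members that passed the filter, 70 were lower in FH (74.6% of all genes), 16 over 2-fold lower (26.3%) and 0 over 2-fold higher (10.6%), with a median log2 difference of -0.69 (-0.56 over all genes). With tags in protein-coding exons as the total, the median was -0.21, and 4 members were over 2-fold lower and 1 higher. The median and the shares of all genes on this scale are not given, so that these values cannot be set against them. All 24 members called lower in RiboMinus that could be compared were lower in Ribo-Zero (97.6% of the genes called lower). Cox7a1 had 17.4 RPKM in CCE and 0.794 in FH, a ratio of CCE to FH of 21.9 (95% interval 12.7 to 40.9, from 182 and 14 tags). Cox6b2 had 14.1 and 1.95 (ratio 7.23, 5.33 to 9.98), Cox4i1 364 and 165 (2.20, 2.13 to 2.28), Sdhd 75.9 and 30.4 (2.50, 2.35 to 2.65) and Atp5b 183 and 80.8 (2.26, 2.22 to 2.31). For these members the direction was that of the RiboMinus preparations.

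The 5 members called higher in FH in RiboMinus divided. Cox6a2 was seen with 42 tags in FH and none in CCE, and its FH level of 1.32 RPKM was at least 8.30-fold higher. Cox8b had 3 and 13 tags (ratio of FH to CCE 2.57, 0.706 to 14.1). Cox4i2, Ndufaf3 and Ndufa4l2 were lower in FH, with Ndufa4l2 at 3.56 in CCE and 1.10 in FH (ratio 0.309, 0.215 to 0.437), Cox4i2 at 2.25 and 1.28 (0.570, 0.377 to 0.860) and Ndufaf3 at 8.17 and 6.04 (0.740, 0.624 to 0.877). Of all genes called higher in RiboMinus that passed the filter in Ribo-Zero, 91.7% were higher there, while 2 of the 5 members passed it and 0 were higher. Kit, RNA sample, sequencing location, tag length and the mix of fragmentation methods differ together between these data sets and cannot be told apart.

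**Figure D4:**
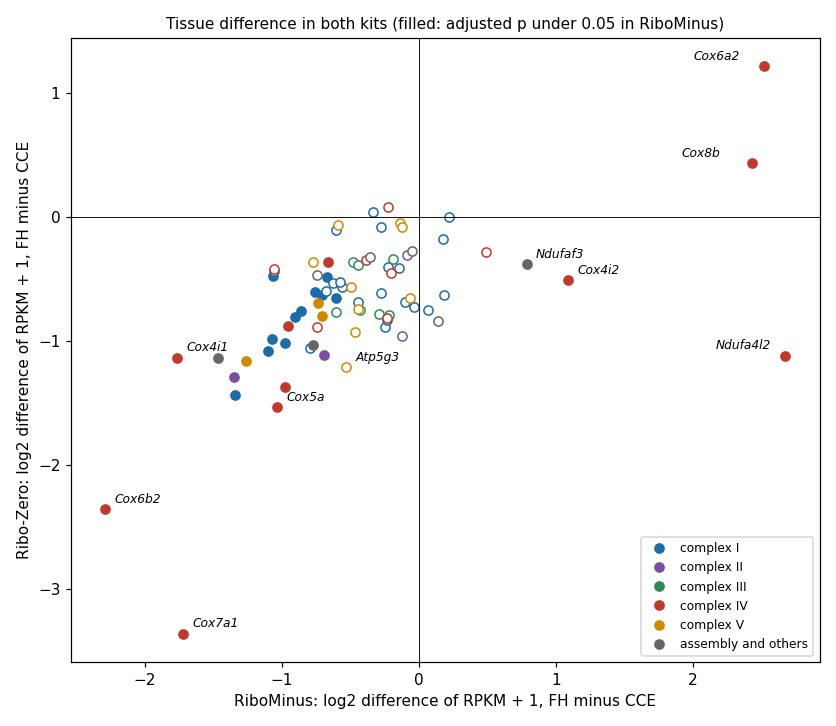
Log2 difference of RPKM + 1, FH minus CCE, of the 80 members tested, in RiboMinus preparations (x axis) and in the Ribo-Zero libraries (y axis), coloured by complex. The filled points, which passed the test in RiboMinus, lie in the lower left except Cox6a2 and Cox8b in the upper right and Ndufa4l2, Cox4i2 and Ndufaf3 in the lower right.

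Within a tissue the members were lower in Ribo-Zero than in the pooled RiboMinus libraries, by a median log2 of -0.48 in CCE (55 of 77 below 0, 57% of all genes) and of -0.90 in FH (61 of 80, 66.3%). The Ribo-Zero totals include tags of the mitochondrial chromosome (2363248 in CCE and 2200005 in FH), and the RiboMinus totals hold none. The RiboMinus pool mixes sheared and hydrolysed libraries, while both Ribo-Zero libraries were hydrolysed. Members went both ways. Ndufa2 had 6.86 RPKM as the mean of the CCE RiboMinus preparations and 59.1 in Ribo-Zero, Ndufs4, an accessory subunit of complex I, 2.83 and 16.8, and Atp5a1 56.3 and 213. In FH the means were 33.6 and 131 for Atp5a1 and 16.0 and 1.10 for Ndufa4l2. In CCE Uqcrq, a small subunit of complex III, had 65.9 and 8.29, Cox6b2 75.8 and 14.1, and Atp5l, a subunit of the membrane part of complex V, 8.22 and 0.613. The 13 genes encoded in the mitochondrion can be seen only with Ribo-Zero, as the RiboMinus files list no tags on that chromosome. Their exons held 0.146% of the unique tags in CCE and 0.0769% in FH, which is 0.338 and 0.318 times the share of the nuclear members. mt-Nd1 had 558 RPKM in CCE and 344 in FH, and mt-Co2, mt-Co3, mt-Atp6, mt-Atp8, mt-Nd3 and mt-Nd4l were listed at 0 in both. The share above therefore comes from the other 7 genes, and a 0 here is not read as absence of the RNA.

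Between the fragmentation methods, most members called were higher after hydrolysis. With tissue as a covariate, 37 of 80 members were higher in hydrolysed than in sheared preparations (25.7% of all genes) and 6 were lower (20.3%), with a median log2 difference of 0.42 (0.04 over all genes). The counts were 17 higher and 3 lower in CCE alone (9.64% and 7.92% of all genes) and 21 and 2 at Vienna-IMP alone (7.99% and 4.36%). The lower count was 12 without sheared CCE2 (19.2% of all genes) and 15 with repeated positions counted once (24.6%). In CCE both hydrolysed values lay above both sheared values for 41 members (35.9% of all genes) and below them for 12 (29%). Ndufb3, an accessory subunit of complex I, had 3.51 and 1.45 in sheared and 11.8 and 10.5 in hydrolysed CCE preparations, and 0 in sheared and 4.94 and 12.4 in hydrolysed FH preparations (hydrolysed minus sheared 2.38 ± 0.36, SE, adjusted p = 0.00112). Atp5k, a subunit of the membrane part of complex V, had 4.35 and 5.401 against 18.3 and 20.3 in CCE and 2.58 against 15.3 and 18.4 in FH. Its difference of 2.00 and that of Cox6b1 (1.83) were the next largest (adjusted p = 0.000198 and 0.000182). The sheared values were below the hydrolysed ones in both tissues for all 3 genes.

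Uqcrc1, Cox4nb and Ndufs7, a core subunit of complex I, had the largest differences in the other direction. Uqcrc1 had 171 and 148 in sheared and 76.4 and 64.8 in hydrolysed CCE preparations, and 108 in sheared and 51.6 and 59.3 in hydrolysed FH preparations (-1.08 ± 0.13, SE, adjusted p = 0.000527). Ndufs7 had 96.1 and 74.5 against 43.5 and 40.3 in CCE and 52.7 against 25.9 and 28.3 in FH (adjusted p = 0.000649). The 6 members that were lower after hydrolysis also held Atp5d, Uqcrfs1 and Uqcr11, so that 3 of them are subunits of complex III, where 3 others were higher.

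Members are short, with a median main transcript of 868 bases against 2257 over all genes. Among transcripts under 1 kb, 53.2% of 47 tested members and 32.1% of 744 other genes were higher after hydrolysis, with medians of 0.49 and 0.19. From 1 to 8 kb it was 36.4% of 33 members and 24.6% of 9098 other genes, with medians of 0.16 and 0.03. In the tissue comparison, members under 1 kb had a median of -0.39 and other genes of that length -0.40, while members from 1 to 8 kb had -0.63 and other genes -0.35. The part of transcript length in these differences was not tested.

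**Figure D5:**
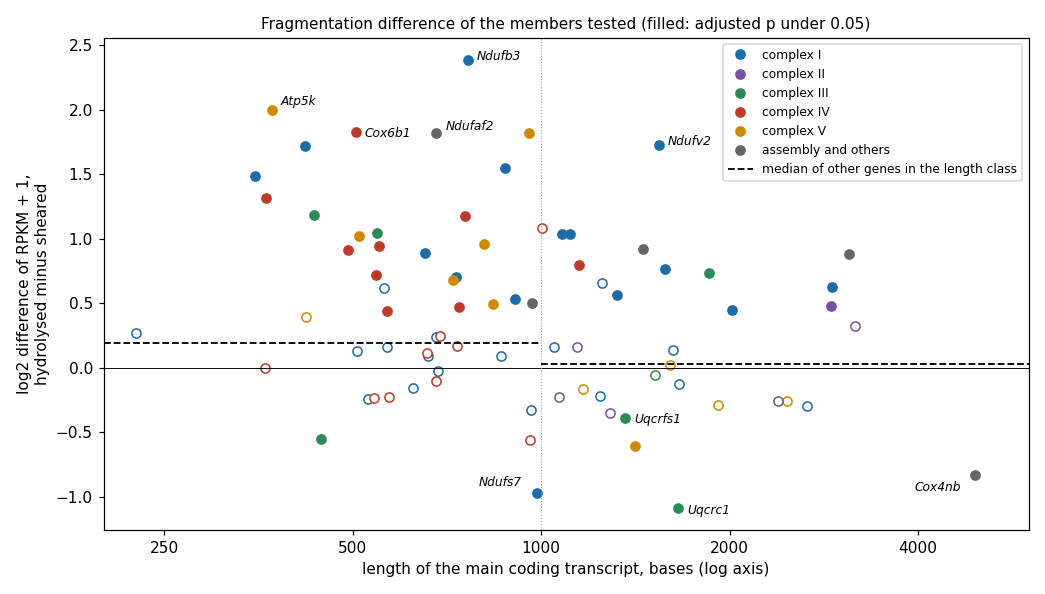
Log2 difference of RPKM + 1, hydrolysed minus sheared (y axis), of the 80 members tested against the length of their main coding transcript in bases (x axis, log scale), coloured by complex, with filled points for those that passed the test. Dashed lines mark the medians of the other genes under 1 kb (0.19) and from 1 to 8 kb (0.03), and 37 filled points lie above 0 and 6 below it.

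Whether the tissue difference itself depended on fragmentation was tested as an interaction, which rests on the single sheared FH preparation. In limma 0 of 80 members passed (0.0776% of all genes), with 5 at an unadjusted p under 0.05 (8.17% of all genes). Between the locations 1 member passed (0.65% of all genes), Cox4i2, which was higher at Vienna-IMP than at Nijmegen (1.04 ± 0.21, SE, adjusted p = 0.0419), and 19 had an unadjusted p under 0.05 (8.64%). The call of Cox4i2 rests on 40 tags in all and was lost with a pseudocount of 0.1 or without the cDNA preparation as a block.

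Many members have near copies elsewhere in the genome, and tags that match 2 places were not kept by the authors. A position was counted as reachable when no other place in the genome matched its tag with up to 2 mismatches (36 bases) or 3 (51 bases). Under this measure 20 of the 94 members had a main transcript with under 50% of its positions reachable. Over all exon positions the lowest shares were those of Atp5l-ps1 (0%), Cox7a2l (17.8%), Atp5l (19.6%), Atp5g2 (20.1%) and Cox5b (31.8%). Tags from the other positions may be missing from their RPKM, while a comparison of one gene between the tissues uses the same positions. Stretches of 36 coding bases of 3 such genes and of the copy that hides them are shown on the mm9 build, with the differing bases in capitals.
Atp5l (chr9:44728694-44728729, minus strand): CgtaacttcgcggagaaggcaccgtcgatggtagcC
Atp5l-ps1 (chr7:69621207-69621242, plus strand): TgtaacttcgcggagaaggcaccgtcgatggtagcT
Cox5b (chr1:36749331-36749366, plus strand): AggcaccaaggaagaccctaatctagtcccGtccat
Gm11273 (chr13:21593040-21593075, minus strand): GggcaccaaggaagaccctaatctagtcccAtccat
Cox7a2l (chr17:83902031-83902066, minus strand): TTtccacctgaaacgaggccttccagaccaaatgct
Gm6969 (chr12:25323622-25323657, minus strand): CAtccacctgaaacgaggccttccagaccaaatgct
Each pair differs at 2 positions, so that a tag from either place could have been aligned to both. The copies share 75.5%, 68.2% and 82.2% of the positions of the main transcripts of Atp5l, Cox5b and Cox7a2l. Gm6969 is annotated as a pseudogene, and Gm11273 and Atp5l-ps1 as protein-coding genes. No member tag lay where an exact copy exists, and 3.99% of the member tags of Vienna-IMP, 2.82% of those of Nijmegen and 2.36% of those of Vienna-CeMM lay where a near copy exists, beside 14.1% of the member exon positions for tags of 36 bases and 11.4% for tags of 51. With the length cut to exon positions without an exact copy of their 36 bases elsewhere, 25 of 83 tested members were lower and 5 higher in FH. The measure with mismatches was not used as a length in this comparison. Of all genes these were 34.3% and 19.7%. The same length divides both tissues, so that these counts cannot show whether near copies affect the tissue calls.

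Of the genes around the respiratory chain, those of the citrate cycle and of glycolysis were mostly lower in FH. The counts of each list stand beside 34.8% of all genes called lower and 19.9% called higher. In the citrate cycle 9 of 12 tested genes were lower and none was higher, among them Cs, citrate synthase (56.7 ± 9.67 in CCE, n = 4, and 25.6 ± 5.18 in FH, n = 3, SD) and Fh1, fumarase (49.9 ± 10.6 and 19.6 ± 5.43). Of glycolysis and glucose uptake, 12 of 18 were lower and 2 higher, Aldoc and Pfkp. Pfkp passed the filter only through FH, where it was high (means of 2.39 and 3.92), and Hk2 and Pgk1, both lower, only through CCE. Their calls are given as a description. In Ribo-Zero both Aldoc (13.1 in CCE and 8.58 in FH) and Pfkp (11.4 and 5.70) were lower in FH. The glucose transporter Slc2a3 had 94.5 ± 11.3 and 4.27 ± 0.977 (log2 difference -4.19 ± 0.19, SE, adjusted p = 7.82e-07), a larger difference than that of any member. All 4 tested carriers and porins were lower, with the ADP/ATP carrier Slc25a4 at 222 ± 48.5 and 84.2 ± 5.04. Of the mitochondrial ribosome 20 of 64 were lower, a share under that of all genes, and none was higher. With fragmentation as a covariate 40 were lower, a share above the 49% of all genes. Among 9 assembly factors of cytochrome c oxidase Cox10, Cox15, Cox17 and Sco2 were lower and Cox19 was higher. Cox17 passed the filter only through CCE, where it was high (means of 5.26 and 1.99), and its call is given as a description. Among 9 tested regulators Gabpa, Pprc1, Tfam and Peo1 were lower, while Nrf1 (3.66 ± 0.192 and 2.97 ± 0.369) and Esrra (23.9 ± 9.63 and 23.0 ± 7.2) did not pass. The coactivator Ppargc1a had means of 0.214 and 0.732 and was under the filter.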

How the data were processed

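RNA-seq tags of 16 libraries were analysed. The authors had aligned reads of 36 bases (RiboMinus) and 51 bases (Ribo-Zero) to mouse genome mm9 with Bowtie, with up to 2 and 3 mismatches, after removal of ribosomal and, for RiboMinus, mitochondrial reads, and had kept unique tags. Splice-junction tags were not mapped. The deposited files list 1 tag per line. Their score column, deposited by the authors, held 0 in every line of the RiboMinus files and 255 in every line of the Ribo-Zero files, and was not used. Tags carried no strand in use here, so that overlapping genes (21 members share exon bases with another gene) cannot be told apart.

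Tag midpoints in merged GENCODE M1 exons were counted with Python 3.11.15, and the libraries of a cDNA preparation were summed. The preparation of each library was taken from the study's lane list. RPKM used all unique tags. Tissues and fragmentation were compared on log2(RPKM + 1) with limma (version 3.58.1, under R 4.3.3), keeping genes above a mean RPKM of 3 in either tissue, with Benjamini-Hochberg adjustment over all genes tested. Location was tested on the 14 RiboMinus libraries with the preparation as a block. Paralogue ratios were compared by exact two-sided permutation. Ribo-Zero had 1 library per tissue and no test. Its 95% intervals are exact. In simulated data 200 of 200 changed genes were recovered for the tissue comparison, over 9491 genes, with 1 unchanged gene called. For fragmentation 200 of 200 were recovered with 26 unchanged genes called, and for the interaction, with 0 changed, 7 were called.

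Depth was 920424 to 2473448 tags per RiboMinus library, where 3 tags were taken as the floor, and 28708715 and 48426051 for Ribo-Zero. The median 95% counting half-width of the Ribo-Zero tissue difference was 0.14 on the log2 scale.

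The members, lists and tests were chosen with earlier results of these data known. Named were all paralogues, in each complex the 3 called members with the largest differences in each direction and no overlap, the most abundant member of each complex, the extremes of fragmentation, kit and reachable positions, and the leading genes of the other lists. Further called members are named to complete a count and were chosen after their values were seen. Same-numbered preparations did not deviate together (r = -0.15 for hydrolysed CCE against hydrolysed FH and -0.15 for hydrolysed against sheared CCE, across 10306 genes). If the hydrolysed numbers are crossed between the locations, each sum mixes both cDNAs, and these correlations cannot show whether preparations deviate together. The values of 1 member, which enters the counts, are not reported here. Not analysed here were lane samples without processed files and combined samples. Other scalings, filters, pseudocounts, locations, lengths and left-out preparations were tried as alternatives. Leaving out the hydrolysed FH1 library of Vienna-IMP and counting the main coding transcript alone were added after seeing the data.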

Additional observations from a re-analysis of the deposited data

Results flagged for a closer look

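Sdhd in CCE was marked for a closer look because 1 of the 4 preparations stood apart from the others. Sheared CCE1 had an RPKM of 49.955, while the other preparations lay between 38.5 and 40.2. Its gap to the nearest value was 0.853 of the range, over Dixon's 95% critical value for 4 samples. Among the 80 members tested, 2 were marked in this way, Sdhd and Ndufa11 (40.6 in sheared CCE1 and 19.9 to 21.9 in the others), both with sheared CCE1 as the highest value. Chance marks about 1 in 20 groups.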

How the results depend on the processing

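Over 25 settings, that of the report included, 9 members kept the call lower in FH (among them Cox6b2, Cox4i1, Cox4nb, Sdhd, Ndufa13, Atp5b, Ndufb7 and Cox7c) and 3 the call higher in FH (Ndufa4l2, Cox6a2 and Cox4i2), in the settings that tested them (25, 24 and 21), where the filter admits all 3 only through FH. The share of all genes that kept a call in every setting was not taken, so that these counts cannot be set against it. The count of members lower in FH was 12 when scaled to tags in protein-coding exons, 13 with median of ratios size factors, 14 with Nijmegen alone, 49 with fragmentation as a covariate and 53 with hydrolysed preparations alone, beside 18.9%, 24.4%, 23.7%, 49% and 50.9% of all genes. With 1 preparation left out it was 17 to 30, beside 28.46% to 36.04% of all genes. The count higher in FH was 2 with a mean RPKM over 10, 3 with Nijmegen alone, 3 without the hydrolysed FH1 library of Vienna-IMP and 7 with hydrolysed preparations alone, beside 17.2%, 15.3%, 17.7% and 25.3% of all genes. It was 4 to 5 with 1 preparation left out, beside 17.4% to 19.7% of all genes. With the preparation number as a replicate block it was 5, with 24 lower (18.7% and 30.8% of all genes), and the log2 difference of Atp5k turned to 0.047. With the hydrolysed numbers crossed at Nijmegen the counts were 5 and 22 (18.9% and 32.1%). The crossed numbers were not tried with fragmentation as a covariate, with hydrolysed preparations alone or for the fragmentation comparison. After hydrolysis 17 members were higher and 3 lower in CCE alone, 21 and 2 at Vienna-IMP alone, and 15 were lower with repeated positions counted once. Of all genes these were 9.64% and 7.92%, 7.99% and 4.36%, and 24.6%. With 1 preparation left out 29 to 45 were higher and 4 to 12 lower, with 12 lower without sheared CCE2. Of all genes 15.79% to 31.1% were higher and 11.65% to 25.02% lower in these settings, with 19.19% lower without sheared CCE2. With the RNA sample as a replicate block 31 were higher and 4 lower (18.5% and 15.3% of all genes). Location called 0 members with a pseudocount of 0.1 and 0 with no replicate block. In Ribo-Zero scaled to protein-coding exons the median tissue difference was -0.21, with 4 members over 2-fold lower and 1 higher, and without shares of all genes to set beside them. The median of Ribo-Zero against RiboMinus was -0.67 in CCE with hydrolysed preparations alone and -0.61 in FH with exon scaling. Medians of all genes in these Ribo-Zero settings are not given, so that the members' medians cannot be set against them. The cause of these changes was not tested.

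Several members that did not pass the tissue test changed sign. With exon scaling Atp5e, Atp5k, Atp5l, Cox6b1, Cox8a, Ndufb9 and Sdhb were at 0.17, 0.25, 0.19, 0.15, 0.12, 0.21 and 0.26, and with median of ratios at 0.077, 0.16, 0.094, 0.043, 0.020, 0.10 and 0.16. Atp5k was at 0.55 with Nijmegen alone and 0.093 with limma-voom, Atp5l at 0.22 with Nijmegen alone and 0.0051 with hydrolysed preparations alone, Ndufb9 at 0.056 at Vienna-IMP alone, and Atp5e at 0.076 without the hydrolysed FH1 library of Vienna-IMP. With 1 preparation left out, the tissue difference ranged from -0.27 to 0.018 for Atp5e, -0.51 to 0.71 for Atp5k, -0.43 to 0.36 for Atp5l, -0.58 to 0.41 for Cox6b1, -0.69 to 0.099 for Cox7a2, -0.49 to 0.033 for Cox8a, -1.38 to 0.49 for Ndufb3, -0.45 to 0.20 for Ndufb9 and -0.24 to 0.0055 for Sdhb. For fragmentation, Cox5b was at -0.083 with Nijmegen alone and Cox8a at -0.099 with repeated positions counted once. Members with few tags, such as Cox8b and Cox4i2, are limited by depth.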
